A study of Homo sapiens with 4 samples.

Results

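The genes described here are 10 that encode heterogeneous nuclear ribonucleoproteins (hnRNPs), taken by gene identifier in the order HNRNPA1 (ENSG00000135486), HNRNPA2B1 (ENSG00000122566), HNRNPC (ENSG00000092199), HNRNPD (ENSG00000138668), HNRNPK (ENSG00000165119), HNRNPL (ENSG00000104824), HNRNPM (ENSG00000099783), HNRNPU (ENSG00000153187), HNRNPH1 (ENSG00000169045) and HNRNPR (ENSG00000125944). They were read from peak lists of an enhanced crosslinking and immunoprecipitation (eCLIP) experiment, in which ultraviolet light joins a protein to the RNA it touches and the RNA pulled down with the protein is sequenced. Of 17764 genes with a peak in any list, these 10 held 592 of the 479308 peaks of eCLIP replicate 1, 220 of 41904 in eCLIP replicate 2, 163 of 63068 in input 1 and 68 of 11204 in input 2. All 10 had peaks in all 4 libraries, and all 10 passed the filter of at least 10 peaks over the 4 libraries. HNRNPC entered because it ranked among the genes with most peaks shared by the eCLIP replicates and absent from the inputs, so that count is a description here and is not tested. The other 9 entered as members of the same class of proteins.

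The eCLIP libraries were made from FLAG-tagged ZFR, an RNA-binding protein with zinc fingers and a DZF domain, and the size-matched inputs from RNA cut from the same part of the gel with no immunoprecipitation. All 4 libraries came from 1 genotype of Flp-In T-REx-293 cells, an established line of embryonic kidney origin, with FLAG-ZFR integrated at the FRT site. The cells were polyclonal and received 1 µg/mL doxycycline for 48 to 72 h to induce the transgene, then 400 mJ/cm2 of ultraviolet light. There were 2 libraries a group, numbered 1 and 2, and no label says that they came from separate cultures, so p-values reflect no more than how these libraries vary, and that variation may be technical. No group without FLAG-ZFR was analysed here.

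hnRNPs coat nascent transcripts and take part in splicing, export, stability and translation of the RNA. HNRNPC binds uridine runs and is known for limiting the use of exons that arise in Alu elements, and the HNRNPA1, HNRNPH1 and HNRNPL proteins are known as regulators of splice site choice. Many hnRNP genes are also regulated through alternative splicing of their own transcripts, in several cases by their own protein. The values below concern the RNA of these genes in the FLAG-ZFR eCLIP and input libraries, not the hnRNP proteins. Whether FLAG-ZFR bound this RNA or lay near it was not tested.

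The libraries differed widely in size. Summed over peaks, eCLIP replicates 1 and 2 held 3075352 and 229647 reads, and inputs 1 and 2 held 249245 and 102084, where the whole number that ends each peak's name was taken as its reads. Mitochondrial RNA took 3.47% and 8.57% of these reads in eCLIP and 1.67% and 30.5% in the inputs, so shares of the reads are given both with and without it where that matters. The lowest number of reads in any listed peak was 3 in every library, but in eCLIP replicate 1 no peak of the 10 genes held so few: the weakest listed peak held 26 reads in HNRNPA1, 18 in HNRNPL, 16 in HNRNPH1 and 13 in HNRNPU, and between 4 and 8 in the other 6. In eCLIP replicate 2, 27.3% of the hnRNP peaks rested on 3 reads, and in the 2 inputs 49.7% and 45.6% did. Over all peaks the share was 32.0% and 50.1% in eCLIP replicates 1 and 2, and 62.3% and 49.2% in inputs 1 and 2. The number of peaks in a gene and the reads in its peaks are therefore different readouts here. Fewer RNA molecules and less binding per molecule cannot be told apart in these lists.

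By reads, 7 of the 10 genes took a larger share of both eCLIP libraries than of both inputs. These were HNRNPA1, HNRNPC, HNRNPL, HNRNPM, HNRNPU, HNRNPH1 and HNRNPR. Over all 8914 genes tested the same held for 25.0%, and for 31.4% of the 3130 genes with peaks in all 4 libraries. HNRNPA2B1 was the 1 gene with both eCLIP shares below both inputs (9.08% of the genes tested), while the shares of HNRNPD and HNRNPK overlapped between the groups. With mitochondrial reads left out of the totals, a setting chosen after seeing the data, 4 genes stayed above both inputs, HNRNPA1, HNRNPM, HNRNPH1 and HNRNPR, against 23.6% of the genes tested and 26.6% of those with peaks in all 4 libraries. Limited to peaks with a deposited p-value of at most 0.001 the count by reads stayed at 7 (20.9% and 32.9%), as it did over lists of equal length (6.10% and 11.9%). HNRNPA2B1 stayed below both inputs without mitochondrial reads (10.8% of the genes tested), but 0 of the 10 genes were below both at that p limit (5.14%) or in lists of equal length (11.8%). No gene passed a test across all genes on either readout (given with the tests below).

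The A and B type genes differed from each other. HNRNPA1, whose protein shuttles between nucleus and cytoplasm and often acts as a splicing silencer, took 5.92 and 7.79 per 10000 reads in eCLIP replicates 1 and 2, against 1.36 and 1.47 per 10000 in inputs 1 and 2. The groups did not overlap, and the mean share was 4.84 times that of the inputs (6.86 ± 1.32 against 1.42 ± 0.0744 per 10000, SD, n = 2 each). The input shares rested on 34 and 15 reads in 9 and 4 peaks, of which 5 and 3 held the minimum of 3 reads. HNRNPA2B1, which encodes a close relative that also acts in RNA transport, took 3.45 and 3.31 per 10000 reads in eCLIP, against 4.81 in input 1 and 5.29 in input 2. Here both eCLIP shares were the lower ones, with a mean of 3.38 ± 0.102 against 5.05 ± 0.336 per 10000 (SD, n = 2 each). Nearly every HNRNPA1 peak was also listed under a second gene identifier: 20 of 21 in eCLIP replicate 1, 9 of 11 in eCLIP replicate 2, and all 9 and 4 in the inputs. Some HNRNPL and HNRNPU peaks were too, though none in eCLIP replicate 1. For HNRNPL they were 3 of 17 in eCLIP replicate 2 and 5 of 11 and 3 of 9 in the inputs. For HNRNPU they were 8 of 22, and 5 of 25 and 3 of 8.

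HNRNPH1, whose protein binds runs of guanine, had the highest read share of the 10 in eCLIP replicate 1 and the second highest, after HNRNPC, in eCLIP replicate 2. It took 10.4 and 13.5 per 10000 reads in eCLIP and 2.25 and 3.23 per 10000 in the inputs, and its mean share was 4.37 times the input mean. HNRNPR, whose protein is a close relative of SYNCRIP, took 3.99 and 6.23 per 10000 reads in eCLIP and 2.49 and 0.294 in the inputs, a ratio of means of 3.67. The low input 2 value of HNRNPR came from 1 peak with 3 reads, the least that the list can hold. HNRNPM, a splicing regulator that prefers GU-rich RNA, took 2.54 and 3.92 per 10000 in eCLIP and 1.44 and 1.18 in the inputs, a ratio of means of 2.47. In these 3 genes both eCLIP libraries were above both inputs with and without mitochondrial reads.

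HNRNPC, HNRNPL and HNRNPU were above both inputs only while mitochondrial reads counted in the totals. HNRNPC took 8.93 and 17.7 per 10000 reads in eCLIP and 5.38 and 6.96 in the inputs. Its lower eCLIP value, from replicate 1, was close to its higher input value, and without mitochondrial reads the order turned: 9.25 and 19.4 in eCLIP, against 5.47 in input 1 and 10.0 in input 2. HNRNPL, which binds CA-rich RNA, took 8.61 and 8.19 per 10000 reads in eCLIP and 1.69 and 6.56 in the inputs, and 8.92 and 8.95 against 1.71 and 9.44 without mitochondrial reads. Its 2 inputs thus lay far apart, and input 2 decided its call. HNRNPU, a scaffold protein of the nucleus that binds both RNA and chromatin, took 6.59 and 8.01 per 10000 reads in eCLIP and 4.73 and 5.00 in the inputs, and 6.83 and 8.76 against 4.81 and 7.18 without mitochondrial reads.

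HNRNPD and HNRNPK showed no separation. HNRNPD, known for binding AU-rich elements that set messenger RNA stability, took 2.25 and 1.39 per 10000 reads in eCLIP and 1.52 and 3.53 in the inputs. HNRNPK, which binds cytidine-rich RNA, took 1.02 and 0.958 per 10000 in eCLIP and 1.93 and 0.490 in the inputs. In HNRNPK the 2 inputs lay on either side of the eCLIP libraries, and input 2 rested on 1 peak of 5 reads.

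**Figure D1:**
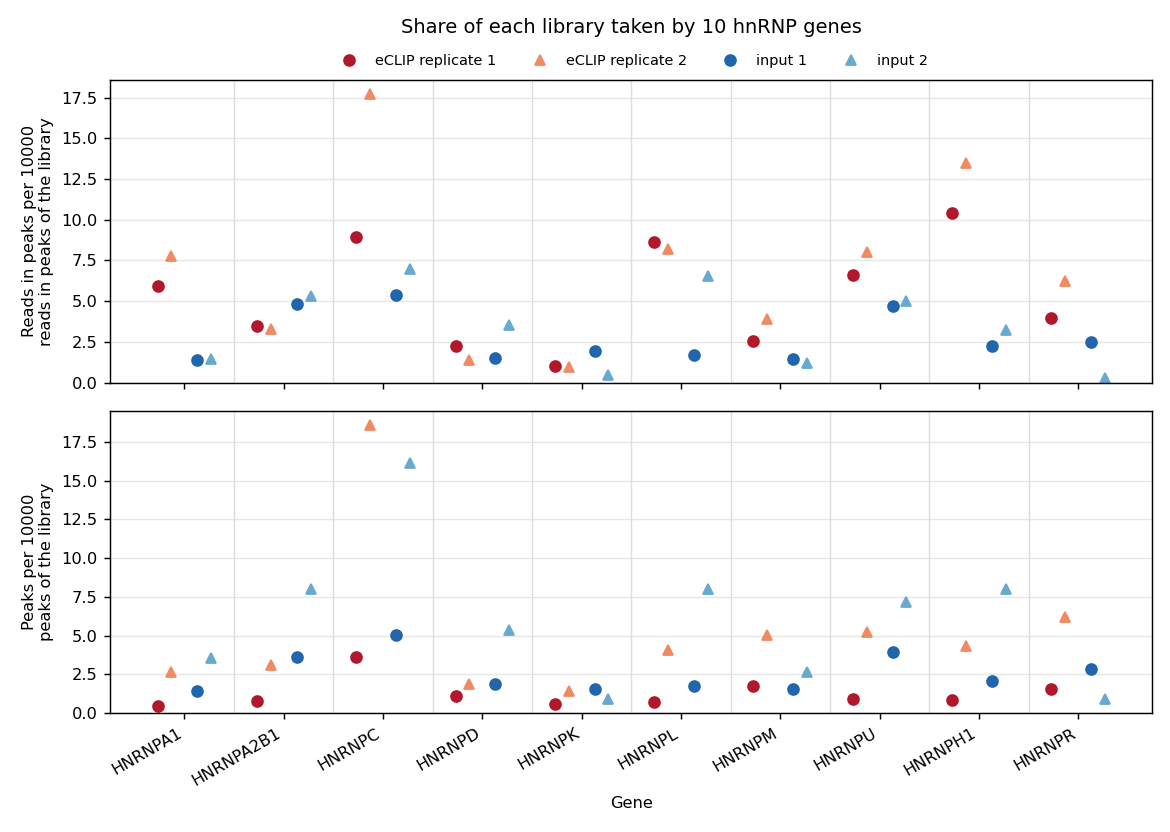
Share of each library taken by the 10 hnRNP genes, as reads in peaks per 10000 reads in peaks (top) and as peaks per 10000 peaks (bottom), with 1 point per library (circles, number 1, and triangles, number 2; red and orange, eCLIP; blue, input). By reads the eCLIP points of HNRNPA1 (5.92 and 7.79) and HNRNPH1 (10.4 and 13.5) stand clear of their inputs, while by peaks the 2 libraries of each group lie far apart and no gene has both eCLIP points above both inputs.

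Set per length, with the stretch that a gene's peaks cover from end to end over the 4 libraries (its span) as the length, HNRNPA1 had the highest read level of the 10 in both eCLIP libraries. It had 1.09 and 1.43 reads per 10000 and per kb in eCLIP replicates 1 and 2, against 0.250 and 0.269 in inputs 1 and 2. HNRNPL, HNRNPH1 and HNRNPU followed at 0.641, 0.537 and 0.500 reads per 10000 and per kb in eCLIP replicate 1 and at 0.610, 0.695 and 0.607 in eCLIP replicate 2, and their order changed between the 2 libraries. In both inputs HNRNPA2B1 had the highest read level per kb, at 0.502 and 0.552, against 0.360 and 0.345 in eCLIP. HNRNPC, with the longest span (59.8 kb), had 0.149 and 0.296 reads per 10000 and per kb in eCLIP and 0.0899 and 0.116 in the inputs, below HNRNPA2B1 in every library. The lowest read levels per kb in eCLIP were those of HNRNPM (0.0576) in replicate 1 and of HNRNPD (0.0694) in replicate 2. The span depends on where peaks were listed, and a single outlying peak lengthens it: in HNRNPA1 an input 1 peak is centred 0.018 kb from the 5′ end of the span, while the first peaks of eCLIP replicates 1 and 2 are centred 3.218 and 2.655 kb from it.

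By number of peaks the picture was different, and none of the 10 genes had both eCLIP shares above both input shares, where 21.1% of the genes tested and 15.2% of those with peaks in all 4 libraries did. The count was also 0 with touching peaks merged (21.5% and 15.6%), but it was 4 with peaks of a deposited p-value of at most 0.001, HNRNPC, HNRNPM, HNRNPH1 and HNRNPR (19.0% and 28.1%). At that p limit HNRNPA2B1 and HNRNPK were below both inputs by peaks (6.26%). HNRNPA1 had 21 and 11 peaks in eCLIP and 9 and 4 in the inputs, which was 0.438 and 2.63 per 10000 peaks in eCLIP and 1.43 and 3.57 in input. HNRNPC had 175 and 78 peaks in eCLIP and 32 and 18 in the inputs, which was 3.65 and 18.6 per 10000 peaks in eCLIP and 5.07 and 16.1 in input. For both genes the 2 libraries of a group were further apart than the groups. In the full lists HNRNPA2B1 was again the 1 gene below both inputs (10.2% of the genes tested, and 10.4% with touching peaks merged), at 0.793 and 3.10 per 10000 peaks in eCLIP and 3.65 and 8.03 in the inputs. With each list reduced to its 11204 best-ranked peaks, the length of the shortest list, 6 genes were above both inputs by peaks: HNRNPA1, HNRNPC, HNRNPL, HNRNPU, HNRNPH1 and HNRNPR, against 5.64% of the genes tested and 10.5% of those with peaks in all 4 full lists. None of the 10 was then below both inputs by peaks (9.64%). HNRNPH1 then had 34.8 and 13.4 per 10000 peaks in eCLIP and 3.57 and 8.03 in the inputs. HNRNPL had 27.7 and 11.6 in eCLIP against 2.68 and 8.03, and HNRNPR 19.6 and 9.82 in eCLIP against 1.79 and 0.893. Lists of this length keep all of input 2 and only the strongest part of eCLIP replicate 1, so the lists still differ in how strong their peaks are.

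Tested across all 8914 genes with limma, 0 of the 10 genes differed between eCLIP and input, on a scale of log2(peaks per 10000 + 0.5). Over all genes limma called 0% in either direction after Benjamini-Hochberg adjustment, and the unadjusted p was under 0.05 for 1.26% of genes higher and 0.696% lower in eCLIP, with none of the 10 among them. The log2 differences of eCLIP minus input ran from -1.46 (SE 0.84) for HNRNPA2B1 to 0.78 (SE 0.84) for HNRNPR, each with a limma adjusted p of 0.995. Leaving out 1 library moved the difference by over 1.5 times in fold in 9 of the 10 genes, all but HNRNPK, with a range from -2.20 to -0.72 in HNRNPA2B1, for example, and from -0.08 to 1.63 in HNRNPR. The median of the 10 was -0.79, against 0.16 over all genes tested, and 8 of the 10 lay below 0. On the share of reads, fitted the same way, the median of the 10 was 1.00 against 0.16 over all genes, and 7 of the 10 lay above 0. HNRNPH1 (1.95, SE 0.75), HNRNPA1 (1.93, SE 0.73) and HNRNPR (1.83, SE 0.81) had unadjusted limma p-values of 0.0214, 0.0189 and 0.0392 there, but each had an adjusted p of 0.935. By reads the unadjusted p was under 0.05 for 2.71% of all genes higher and 1.08% lower, and limma again called 0% after adjustment. The direction of HNRNPA1, HNRNPC, HNRNPL, HNRNPU and HNRNPH1 thus turned with the readout, from below 0 by peaks to above 0 by reads. Of 2 libraries against 2, an exact two-sided permutation test of a single gene cannot give a p below 0.33.

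In HNRNPA1, HNRNPH1, HNRNPU, HNRNPK, HNRNPR and HNRNPL a single stretch of 1 kb held at least 35.1% of the gene's reads in both eCLIP libraries, and in HNRNPK it held 43.8% and 100% in the inputs as well. To measure this, the window of 1 kb with most reads was chosen for each gene on eCLIP replicate 1 alone and was then read in the other 3 libraries. The measure is a share of the gene's own reads, so mitochondrial reads do not enter its total, but which peaks were listed differs with the size of the library, and the part of depth in it was not tested. It was added after the data had been seen. In 7 of the 10 genes the window held a larger share of the gene's reads in eCLIP replicate 2 than in either input, which was so for 30.8% of the 3130 genes with peaks in all 4 libraries. With windows of 500 bases it was so in 6 of the 10 (24.4%), and with 2 kb in 7 (34.8%). The values in eCLIP replicate 1 chose the windows and are given as a description.

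In HNRNPH1 the window held peaks from chr5:179045607-179046612 (hg19, minus strand) and took 66.5% of the gene's reads in eCLIP replicate 2, after 69.2% in eCLIP replicate 1, against 14.3% and 33.3% in inputs 1 and 2. It made up 5.15% of the span. Of its 206 reads in eCLIP replicate 2, 51 lay in 1 peak, chr5:179046108-179046177, which overlapped the strongest eCLIP replicate 1 peak, chr5:179046102-179046181 with 240 reads. Their deposited p-values were 7.22e-43 and 8.82e-172. The nearest input peaks lay 50 and 39 bases away, and the 2 inputs held only 8 and 11 reads in the whole window.

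In HNRNPA1 the window held peaks from chr12:54678974-54679921 (plus strand) and took 76.0% of the reads in eCLIP replicate 2, after 87.4% in eCLIP replicate 1, against 23.5% and 20% in the inputs. The strongest peaks of both eCLIP libraries overlapped there, chr12:54679395-54679458 with 304 reads in replicate 1 and chr12:54679393-54679444 with 65 reads in replicate 2. The inputs held 8 and 3 reads in the window. The 3 reads of input 2 formed 1 peak, which overlapped the 304-read peak. Their centres lay 4.438 and 4.485 kb from the 5′ end of the span.

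In HNRNPU the window, chr1:245016846-245017805 on the minus strand, took 44.0% of the reads in eCLIP replicate 2, after 49.8% in replicate 1, against 7.63% and 15.7% in the inputs. Its strongest eCLIP peaks also coincided, at chr1:245017110-245017164 with 140 reads and chr1:245017113-245017205 with 61 reads. The 1 peak of input 2 in the window, with 8 reads, overlapped both and was centred where the 61-read peak was. In HNRNPR the window at chr1:23633029-23633986 took 36.4% of the reads in eCLIP replicate 2, after 40.9%, against 6.45% in input 1 and 0% in input 2, where the gene had only 1 peak. It lies near the 3′ end of the span of this minus-strand gene. In HNRNPL the window at chr19:39333398-39334451 took 35.1% in eCLIP replicate 2, after 67.3%, against 19.0% and 0% in the inputs. The 2 eCLIP libraries differed most here. The strongest peak of input 2, chr19:39332658-39332725 with 20 reads, lay outside the window.

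HNRNPC and HNRNPD also had higher window shares in eCLIP replicate 2, on few reads. The HNRNPC window, chr14:21715875-21716755, took 6.14% in eCLIP replicate 2 (25 reads in 3 peaks), after 7.06% in replicate 1, against 0% in both inputs. It covers 1.67% of the span, so its absence from 32 and 18 input peaks is a weak observation. In HNRNPD the window at chr4:83275044-83275795 took 37.5% (12 reads), after 19.8%, against 23.7% and 0%. HNRNPA2B1 (26.3% against 26.7% and 40.7%), HNRNPK (59.1% against 43.8% and 100%) and HNRNPM (11.1% against 16.7% and 0%) had no larger share in eCLIP replicate 2 than in both inputs.

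**Figure D2:**
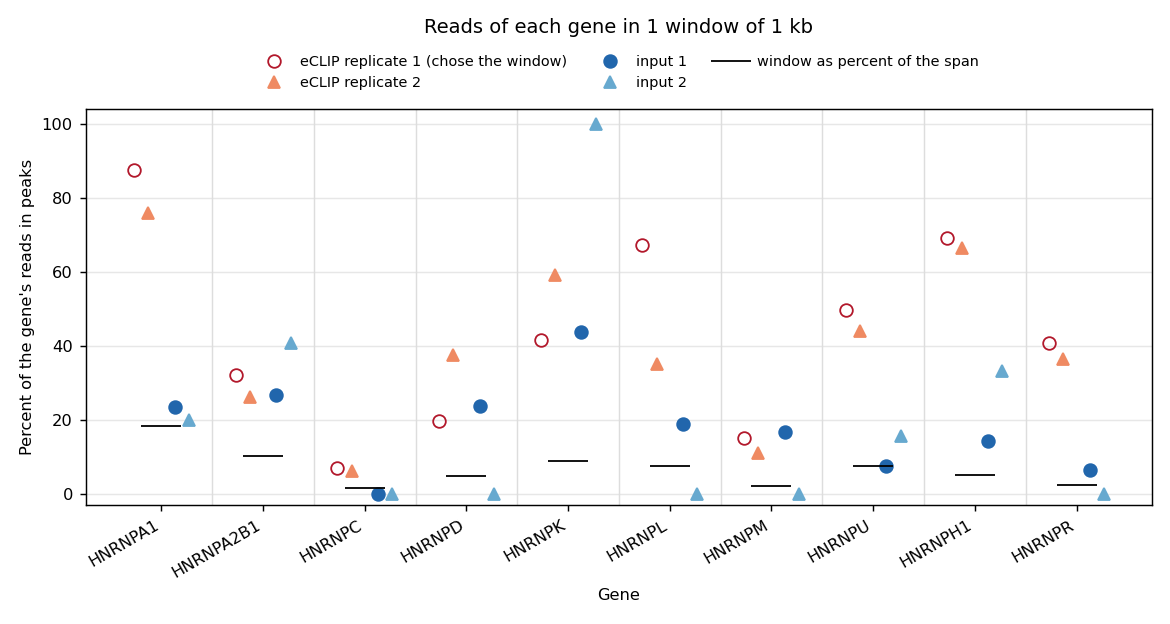
Percent of each gene's reads in peaks that fell in 1 window of 1 kb, for each library, with the window's size as a percent of the span as a black line. The window was chosen on eCLIP replicate 1 (open circles). The eCLIP replicate 2 points of HNRNPA1 (76.0%), HNRNPH1 (66.5%), HNRNPU (44.0%), HNRNPR (36.4%) and HNRNPL (35.1%) lie above both of their inputs.

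**Figure D3:**
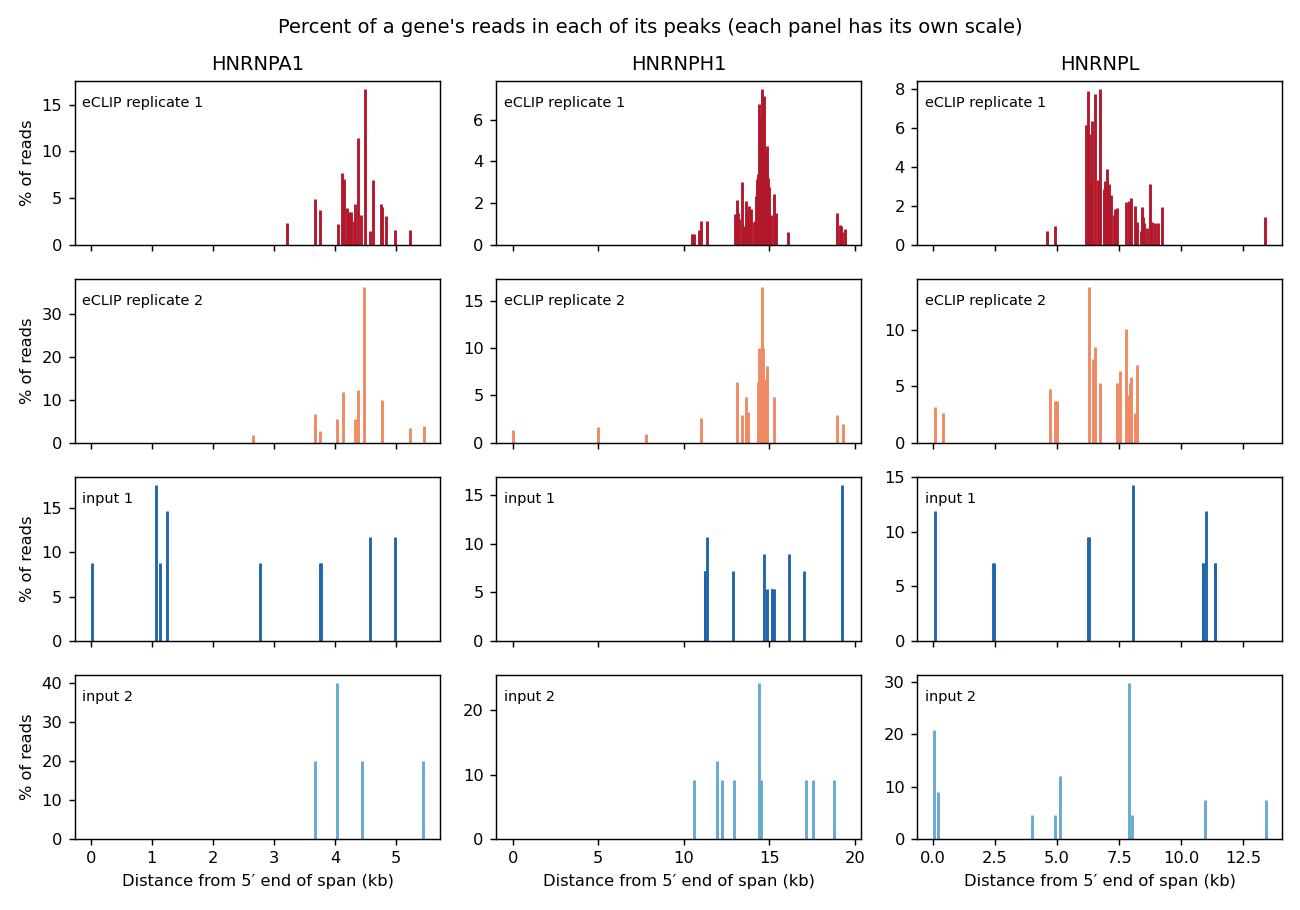
Percent of a gene's reads in each of its peaks, against the distance from the 5′ end of the span in kb, for the 3 genes with the largest window share in eCLIP replicate 1 (columns) and the 4 libraries (rows, each with its own scale). In both eCLIP libraries the tallest lines of HNRNPA1 and HNRNPH1 stand at the same place, while the input lines are few and low in reads; those of HNRNPH1 all lie in the last 5 of 10 parts of the span.

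The strongest peak of a gene lay at the same place in both eCLIP libraries, with at least 1 shared base, in 5 of the 10 genes: HNRNPA1, HNRNPD, HNRNPK, HNRNPU and HNRNPH1. Over the 3130 genes with peaks in all 4 libraries this was so in 8.05%. In HNRNPA1, HNRNPD, HNRNPK and HNRNPU an input peak also overlapped that eCLIP replicate 1 peak by at least 1 base. In HNRNPH1 none did. Between an eCLIP library and an input the strongest peaks coincided in 1 gene for eCLIP replicate 1 with either input (HNRNPM with input 1, 5.02% of the 3130, and HNRNPK with input 2, 5.46%), in 0 for eCLIP replicate 2 with input 1 (4.19%) and in 1, HNRNPK, with input 2 (8.72%), and between the 2 inputs in 1, HNRNPA2B1 (11.3%). HNRNPA2B1 had its strongest input peaks at chr7:26231492-26231532 with 13 reads and chr7:26231486-26231536 with 14 reads. Its strongest eCLIP peaks were chr7:26231903-26231963 with 68 reads in replicate 1 and chr7:26233218-26233319 with 12 reads in replicate 2. All of these places had peaks in both groups. At the input site eCLIP replicates 1 and 2 had peaks of 41 and 8 reads. Input 2 had peaks of 5 and 4 reads at the places of the strongest peaks of eCLIP replicates 1 and 2.

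Over the 9 genes without HNRNPC, which was chosen for such sharing, 62.7% of the eCLIP replicate 2 peaks were found again in eCLIP replicate 1 (89 of 142, Wilson 95% interval 54.5 to 70.2), against 33.0% (32.5 to 33.4) over all genes. They overlapped a peak of input 1 in 14.1% (9.31 to 20.8) and of input 2 in 12.0% (7.61 to 18.3), against 3.49% and 5.15% over all genes. In these 9 genes peaks of eCLIP replicate 2 thus overlapped each of the other 3 lists in a larger share of cases than over all genes. Input 1 peaks of the 9 genes were found in eCLIP replicate 1 in 36.6% of cases, against 12.7% over all genes. The inputs overlapped each other less clearly: input 1 peaks were found in input 2 in 5.34% (2.61 to 10.6), against 3.35%, and input 2 peaks in input 1 in 12.0% (5.62 to 23.8), against 18.0%. Intervals on shares of peaks cover counting error only, and peaks of 1 gene share their RNA.

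A peak of eCLIP replicate 1 that overlapped a peak of eCLIP replicate 2 in the same gene and none of either input was counted as reproducible and eCLIP-only. The 10 genes held 107 of the 12046 such peaks. Each of the other 9 besides HNRNPC held at least 1, as did 39.9% of the genes tested. That share is not matched on the number of peaks. Genes tested needed only 10 peaks over the 4 libraries, while the hnRNP genes had from 45 (HNRNPA1 and HNRNPK) to 303 (HNRNPC). The mirror count, of input 1 peaks shared with input 2 but with no eCLIP peak, was 3 in the 10 genes and 1164 over all genes. It starts from the 63068 peaks of input 1 and must avoid the 479308 of eCLIP replicate 1. The lists are thus too unlike in length for it to serve as a control. HNRNPC held 39 reproducible eCLIP-only peaks, and 8 genes of the series held more. HNRNPH1 and HNRNPR held 14 each, HNRNPU 8, HNRNPA1, HNRNPL and HNRNPM 7 each, HNRNPA2B1 6, HNRNPD 3 and HNRNPK 2. Per kb of span HNRNPA1 led with 1.28, followed by HNRNPH1 with 0.721 and HNRNPC with 0.652, and HNRNPD was lowest with 0.149. This order turned when touching peaks were merged: HNRNPA1 then held 3 and HNRNPH1 8, or 0.550 and 0.412 per kb, below the 0.652 of HNRNPC, which kept 39. Limited to peaks with a deposited p-value of at most 0.001, the 10 genes held 63, with 17 in HNRNPH1, 9 each in HNRNPC and HNRNPL, 1 in HNRNPM and 0 in HNRNPK. Without HNRNPC the other 9 genes held 68.

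**Figure D4:**
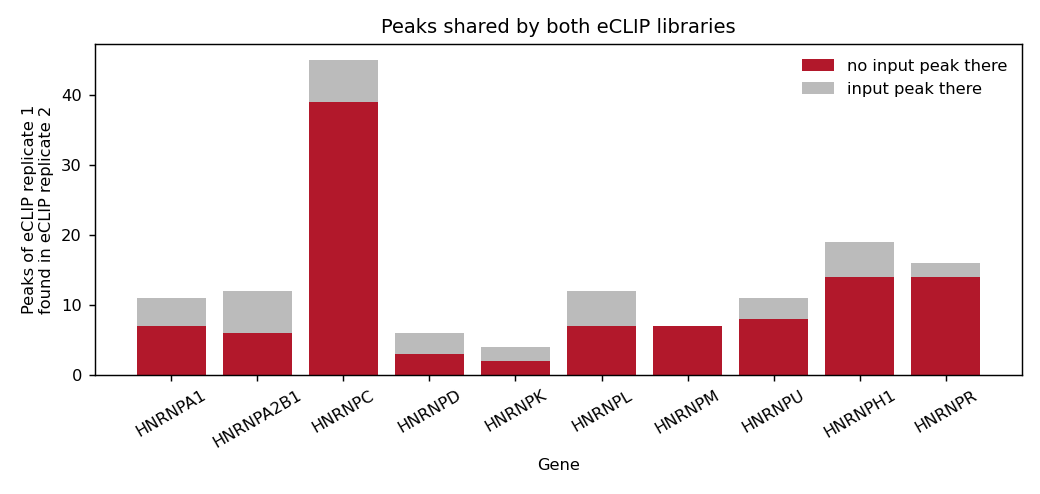
Number of eCLIP replicate 1 peaks of each gene that were found again in eCLIP replicate 2, split into those with no input peak (red) and those with one (grey). HNRNPC has 45 in all, 39 of them with no input peak. All 7 of HNRNPM are free of input peaks, of which that gene had only 10 and 3.

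Of the eCLIP replicate 1 peaks, 16.3% (95% interval 13.1 to 20.2) in the 9 genes without HNRNPC were reproducible and eCLIP-only, against 2.51% over all genes. The hnRNP peaks held more reads, however, and this share rises with the reads in a peak. Among peaks with 3 to 10 reads it was 7.69% (4.35 to 13.2) in the 9 genes without HNRNPC and 1.56% over all genes. Reads were not matched inside this range: no hnRNP peak of eCLIP replicate 1 held 3 reads, while 32.0% of all its peaks did. Among those with 11 to 20 reads it was 11.1% (6.15 to 19.3) in the 9 genes, close to the 10.1% of all genes, and with 21 to 50 reads it was 19.0% (12.7 to 27.6) against 22.1%. Over 50 reads it was 34.2% (24.7 to 45.2) against 24.3% (22.5 to 26.3). Of the 39 such peaks of HNRNPC, 24 held 11 to 20 reads.

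HNRNPC, on the minus strand of chromosome 14, had the most listed peaks of the 10 genes in each library. Its 175 peaks in eCLIP replicate 1 averaged 15.7 reads, and 1 of them held more than 50 reads. Peaks of moderate size were not particular to it: HNRNPR averaged 16.6 reads a peak there, HNRNPD 13.0, HNRNPK 11.2 and HNRNPM 9.41. Averages were well above these in HNRNPA1 (86.8), HNRNPH1 (76.4), HNRNPL (75.6) and HNRNPU (47.2), and 27.9 in HNRNPA2B1. Its 39 reproducible peaks ran from position 21686815 to 21735617, with a median of 15 reads and a median width of 31 bases. By summed reads the first was chr14:21716108-21716145, with 49 reads in the first eCLIP library and 13 in the second, at deposited p-values of 1.34e-32 and 3.49e-09. The nearest input peaks lay 2318 and 1346 bases from it. The next was chr14:21714256-21714310, with 41 and 10 reads, 281 bases from the nearest input peak. The next 3, chr14:21733484-21733528, chr14:21717347-21717396 and chr14:21725788-21725831, had 35, 34 and 33 reads in eCLIP replicate 1 but only 4, 3 and 3 in eCLIP replicate 2, at or next to the minimum.

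In each of the other genes the reproducible peak with most reads over both eCLIP libraries lay within 503 bases of an input peak. In HNRNPA1 it was chr12:54679285-54679345, with 209 and 22 reads, 17 bases from an input 2 peak. In HNRNPL it was chr19:39333785-39333917, with 212 and 10 reads, 385 bases from an input 1 peak. In HNRNPU it was chr1:245017365-245017415, with 101 and 13 reads, 105 bases from one. HNRNPR had the largest of these distances: its peak at chr1:23633390-23633439, with 100 and 12 reads, was 503 and 3710 bases from the nearest peaks of inputs 1 and 2. In HNRNPA2B1 it was chr7:26231658-26231701, with 53 and 5 reads, and in HNRNPD chr4:83275465-83275515, with 22 and 6. HNRNPM had chr19:8522063-8522094, with 17 and 7 reads, and HNRNPK chr9:86583758-86583790, with 14 and 3. In these 4 genes eCLIP replicate 2 thus held 7 or fewer reads in the peak.

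The strongest peaks of the other libraries and genes were as follows. In HNRNPD they were chr4:83275044-83275105 with 41 reads and chr4:83275058-83275098 with 6 reads in eCLIP, and chr4:83286610-83286663 with 5 and chr4:83295016-83295068 with 12 in the inputs. In HNRNPK they were chr9:86584082-86584122 with 32 reads and chr9:86584086-86584125 with 6 in eCLIP, and chr9:86584172-86584180 with 9 and chr9:86584079-86584120 with 5 in the inputs. In HNRNPM they were chr19:8553874-8553916 with 23 reads and chr19:8513628-8513680 with 10 in eCLIP, and chr19:8553891-8553920 with 4 and chr19:8509862-8509914 with 5 in the inputs. The strongest peak of input 2 in HNRNPD and of input 1 in HNRNPK held more reads than that of eCLIP replicate 2. In HNRNPR the strongest peak of eCLIP replicate 1 was the reproducible one named above, that of eCLIP replicate 2 was chr1:23633668-23633713 with 13 reads, and the inputs had chr1:23663349-23663357 with 5 and chr1:23637150-23637165 with 3. In HNRNPL eCLIP replicate 2 had chr19:39334267-39334331 with 26 reads, and input 1 had chr19:39332502-39332540 with 6. The inputs of the remaining genes had chr12:54675995-54676036 with 6 reads and chr12:54678942-54678989 with 6 in HNRNPA1, chr1:245021487-245021547 with 10 and chr1:245027127-245027219 with 20 in HNRNPU, and chr5:179041466-179041508 with 9 and chr5:179046319-179046384 with 8 in HNRNPH1.

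The strongest HNRNPC peak differed between the libraries. It was chr14:21734075-21734142 with 67 reads in eCLIP replicate 1 and chr14:21714016-21714056 with 30 reads in eCLIP replicate 2, against chr14:21729709-21729716 with 8 reads in input 1 and chr14:21733731-21733809 with 9 reads in input 2. No 2 of these overlapped. In eCLIP replicate 2 the 30-read peak stood alone, and the next held 13 reads. The inputs held fewer reads in this gene, 134 and 71, against 2746 and 407 in eCLIP replicates 1 and 2.

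HNRNPC peaks leaned to the 5′ side of the span in every library. The first 5 of 10 equal parts held 69.7% of the peaks in eCLIP replicate 1 (95% interval 62.5 to 76.0) and 75.6% in eCLIP replicate 2 (65.1 to 83.8), against 59.4% (42.3 to 74.5) in input 1 and 72.2% (49.1 to 87.5) in input 2. The intervals of the groups overlap, so no difference between eCLIP and input was detectable at this number of peaks. Of the 39 reproducible peaks, 32 lay in these 5 parts, and none in the last part. Over all genes of at least 5 kb with at least 20 peaks, the first 5 parts held 58.6% and 59.4% of eCLIP peaks and 51.6% and 53.3% of input peaks. Over the 10 hnRNP genes together they held 46.5% and 51.4% in eCLIP and 49.7% and 45.6% in the inputs. The last part held 10.1% and 10.9% of the hnRNP peaks in eCLIP and 12.3% and 10.3% in the inputs, with overlapping intervals, so the smaller eCLIP share at the 3′ end over all genes (9.65% and 8.77%, against 13.8% and 15.2% in the inputs) was not detectable in these 10.

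**Figure D5:**
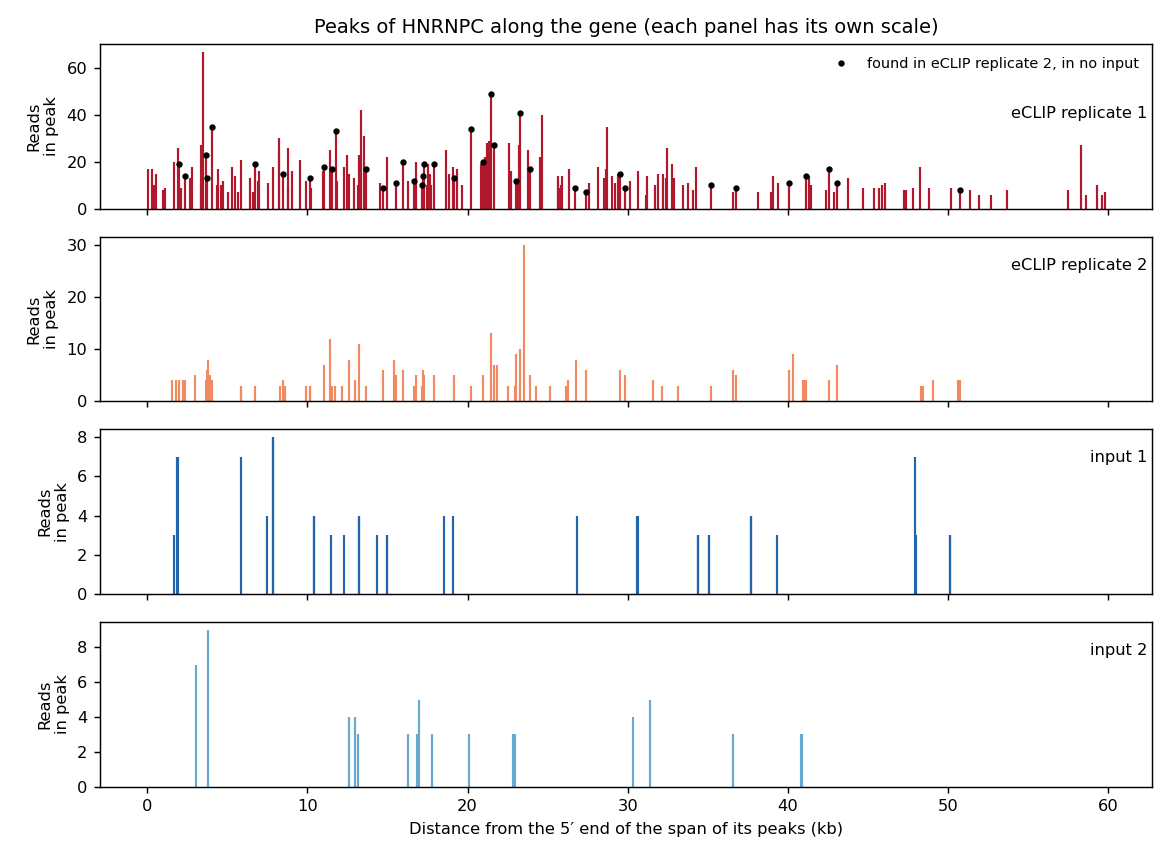
Reads in each HNRNPC peak against its distance in kb from the 5′ end of the span, 1 panel per library with its own scale. Dots mark the 39 reproducible eCLIP-only peaks, which are most frequent in the first 5 of 10 parts of the span.

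The 2 genes whose shares of the 4 lists were nearest to those of HNRNPC, by Euclidean distance of the log2 shares over the 4 libraries, are given by identifier because the files pair it with no name. ENSG00000065526.6, on the plus strand of chromosome 1, had 4.42 and 19.8 per 10000 peaks in eCLIP and 4.28 and 16.1 in the inputs (distance 0.342) and 36 reproducible peaks. ENSG00000108953.12, on the minus strand of chromosome 17, had 3.05 and 16.2 in eCLIP and 4.44 and 16.1 in the inputs (distance 0.345) and 20 reproducible peaks.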

How the data were processed

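FLAG-ZFR eCLIP and size-matched input peaks were analysed in 4 libraries, grouped by their titles. Per the submitters' processing notes, the tools were cutadapt, STAR and SAMtools and the build was hg19; which caller found the peaks, and with what annotation, is not given in the sources used here. For each library the authors deposited 1 peak list, without a header. The deposited p-value of each peak is at most 0.05, and the deposited score is derived from it and was not used. The peak name holds the gene identifier and a whole number taken as reads, which the files do not state. Library depth is unknown.

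Gene names came from the list of members: the reference table of 59792 genes carries 0 Ensembl identifiers and follows another build, so 17 other hnRNP-type genes listed by symbol could not be looked up, and exon and intron classes and sequences are not given. The members and lists were chosen with earlier results of these data known. All 10 members are named, with the strongest peak of each library and the reproducible eCLIP-only peak with most summed reads (5 in HNRNPC).

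Overlap meant a common base or more between peaks of 1 gene identifier and strand (minimum 1). limma 3.58.1 in R 4.3.3 (lmFit, eBayes with a trend, two-sided, threshold 0.05, no replicate block) was fitted over all genes with at least 10 peaks and was tested on simulated data. Other values came from Python 3.11.15 with Wilson intervals from scipy 1.17.1. Alternatives changed the pseudocount, filter, p limit, merging of touching peaks, readout, list length and libraries. Processed pseudogenes and near-identical relatives of several hnRNP genes could share reads, and how the authors assigned such reads is not stated. Touching intervals, 26.4% of the hnRNP intervals of input 1 and 5.41% of eCLIP replicate 1, may repeat the same reads.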

Additional observations from a re-analysis of the deposited data

How the results depend on the processing

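With 2 libraries a group, and reads known only inside listed peaks, the depth limits every gene-level comparison. On peak shares limma called 0 genes higher and 0 lower, and this held under other pseudocounts (0.1 and 2), filters (none and at least 40 peaks), the p limit of 0.001, merged touching peaks and read shares. With the replicate number as a block it called 3 higher and 1 lower, none of them hnRNP genes. The labels do not say that the numbers pair the libraries; deviations of same-numbered libraries from their group means correlated at r = 0.40 across genes. Leaving out 1 library, which sets a lone library against 2 and assumes that it varies alike, gave 0 to 695 genes higher and 0 to 5 lower, again with no hnRNP gene; the 695 arose without eCLIP replicate 2. The count of hnRNP genes with both eCLIP shares above both inputs was 0 by peaks, also when touching peaks were merged, 7 by reads, 4 at the p limit of 0.001 and 6 in lists of equal length. By reads it stayed at 7 at the p limit and in lists of equal length and was 4 without mitochondrial reads. The count of 7 genes by window was 6 with 500 bases and 7 with 2 kb. The 107 reproducible peaks were 63 at the p limit and 68 without HNRNPC. Merging touching peaks took HNRNPA1 to 3 and HNRNPH1 to 8. In the other settings the total ranged from 95 to 124, the 124 without either input replicate. The last part of the span held 15.8% of eCLIP replicate 2 peaks and 24.0% of input 1 peaks at the p limit of 0.001. Log2 differences of the peak share turned from negative to positive at the p limit for HNRNPA1 (0.80), HNRNPC (1.05), HNRNPD (0.82), HNRNPL (0.61) and HNRNPH1 (1.31), and by reads for HNRNPA1 (1.93), HNRNPC (0.99), HNRNPL (1.18), HNRNPU (0.53) and HNRNPH1 (1.95). Leaving out 1 library gave -1.58 to 0.16 for HNRNPA1, -1.21 to 0.99 for HNRNPC, -0.65 to 0.18 for HNRNPK, -1.85 to 0.08 for HNRNPL, -1.76 to 0.04 for HNRNPH1, -0.21 to 1.10 for HNRNPM, -0.08 to 1.63 for HNRNPR, -2.20 to -0.72 for HNRNPA2B1, -1.57 to -0.29 for HNRNPD and -2.06 to -0.02 for HNRNPU. The first 5 turned positive without eCLIP replicate 1 (HNRNPL to 0.06), HNRNPK also without input replicate 1 (0.06), and HNRNPC (0.68), HNRNPL and HNRNPH1 (0.00) also without input replicate 2; HNRNPM and HNRNPR turned negative without eCLIP replicate 2. The median over all genes was itself 0.83 at the p limit, against 0.81 for the 10 genes, and 0.16 in the fit as reported. None of these values passed the threshold, and the cause was not tested. Pseudocounts, filters, merging and the block turned no direction of the 10 genes.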

Other observations

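None of the 4 lists held a peak on the strand opposite to any of the 10 hnRNP genes within the span of its peaks. Every listed peak carries a gene identifier, so signal on a strand with no annotated gene may not have been listed. The absence of such peaks therefore does not show an absence of opposite-strand signal. All 7 HNRNPM peaks shared by the eCLIP libraries were free of input peaks, where 74.8% of the shared peaks of the 10 genes and 85.7% of those of all genes were. In HNRNPA2B1, HNRNPD and HNRNPK the share was 50.0% each, on 12, 6 and 4 shared peaks. HNRNPM had only 10 and 3 input peaks over a span of 44.1 kb, against 23 and 9 over 9.59 kb in HNRNPA2B1. The part of input peak density in these shares was not tested.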
